A study of Rattus norvegicus with 20 samples.

Results

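Genes of iron storage and iron export were followed through 2 brain regions of the rat and 2 diets. The set held 8 listed genes: Fth1, Ftl1, Ncoa4, Pcbp1, Pcbp2, Slc40a1, Heph and Cp. The rule took them by name from the gene symbols in the authors' deposited tables, but the list was drawn up with earlier results of these data known. The RefSeq accession with the most reads stood for a gene with several. The rule found 7 of the 8 genes among the 18288 accessions counted, and Pcbp1 is not analysed here.

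The groups were prefrontal cortex and nucleus accumbens, a ventral striatal region, each with 5 libraries per diet and 20 libraries in all. All came from male Fischer344/Jcl rats, an inbred strain, sampled at 13 weeks of age. Control rats ate the standard AIN-93G diet from day 21 to day 39 of life, and the others ate a low-iron diet over the same days. What the rats ate between day 39 and sampling is not given in the sources used here. The labels do not say whether each library of a group is from its own animal, or whether both regions came from the same rats. The p-values therefore measure only the spread among these libraries, which may be technical. Tissue was bulk, so fewer cells of a type and less RNA per cell cannot be told apart.

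Ferritin is a hollow protein shell that stores iron. Its heavy chain, encoded by Fth1, oxidises incoming ferrous iron, and its light chain, encoded by Ftl1, helps the iron to mineralise. PCBP1 and PCBP2 are RNA-binding proteins that also carry iron to ferritin, and NCOA4 is the receptor that takes ferritin to the lysosome for breakdown. Ferroportin, encoded by Slc40a1, is the known iron exporter of mammalian cells. The multicopper ferroxidases hephaestin (Heph) and ceruloplasmin (Cp) oxidise the iron that leaves through it. Iron regulatory proteins bind a hairpin in the ferritin and ferroportin messengers and hold back their translation when iron is scarce, so protein can change without a change in transcript. Only transcripts were measured here.

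Libraries held 4.34 to 12.97 M assigned reads. Levels are CPM, read counts scaled to the assigned reads of the library, after TMM scaling, which corrects for differences in library composition, and 3 reads corresponded to 0.240 to 0.658 CPM. Summed markers of cortical glutamatergic neurons were at 1879 to 3548 CPM in the cortex. In the accumbens they were at 72.4 to 122 CPM, except for standard-diet replicate 4 at 515 CPM. Summed markers of striatal projection neurons were at 5636 to 9655 CPM in the accumbens and 548 to 597 CPM in the cortex. Standard-diet cortex replicate 4 stood apart, with meningeal and fibroblast markers at 7950 CPM against at most 1981 CPM in any other library, and choroid plexus markers at 125 CPM against at most 25.4 CPM. Several fold changes and ratios that rest on it are given with and without it, while marker medians are given only with it.

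Read support differed widely over the 7 genes. Fth1, on chromosome 1 (accession NM_012848), had 6698 to 15089 reads per library, and Ftl1, also on chromosome 1 (NM_022500), had 613 to 1435. Pcbp2, on chromosome 7 (NM_001013223), had 882 to 2383 reads. Slc40a1, on chromosome 9 (NM_133315), had 16 to 49 and Heph, on chromosome X (NM_133304), had 37 to 175. Cp, on chromosome 2 (NM_001270961), had 3 to 61 reads, and Ncoa4, on chromosome 16 (NM_001034008), had 1 to 10. The deposited tables pair the Slc40a1 and Ftl1 accessions with 2 symbols each and the Fth1 accession with 3 Entrez gene numbers. Ferritin genes have near-identical copies in the genome, and 8.10 to 9.09% of reads per library over all genes were set aside as mapping to several places. The share at the ferritin genes was not measured, so their counts are uncertain. Cp and Ncoa4 each have a second accession, and reads in exons shared by both are counted for neither; 3.61 to 4.23% of reads were ambiguous. The counts do not use strand, so antisense transcripts would be included.

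**Figure D1:**
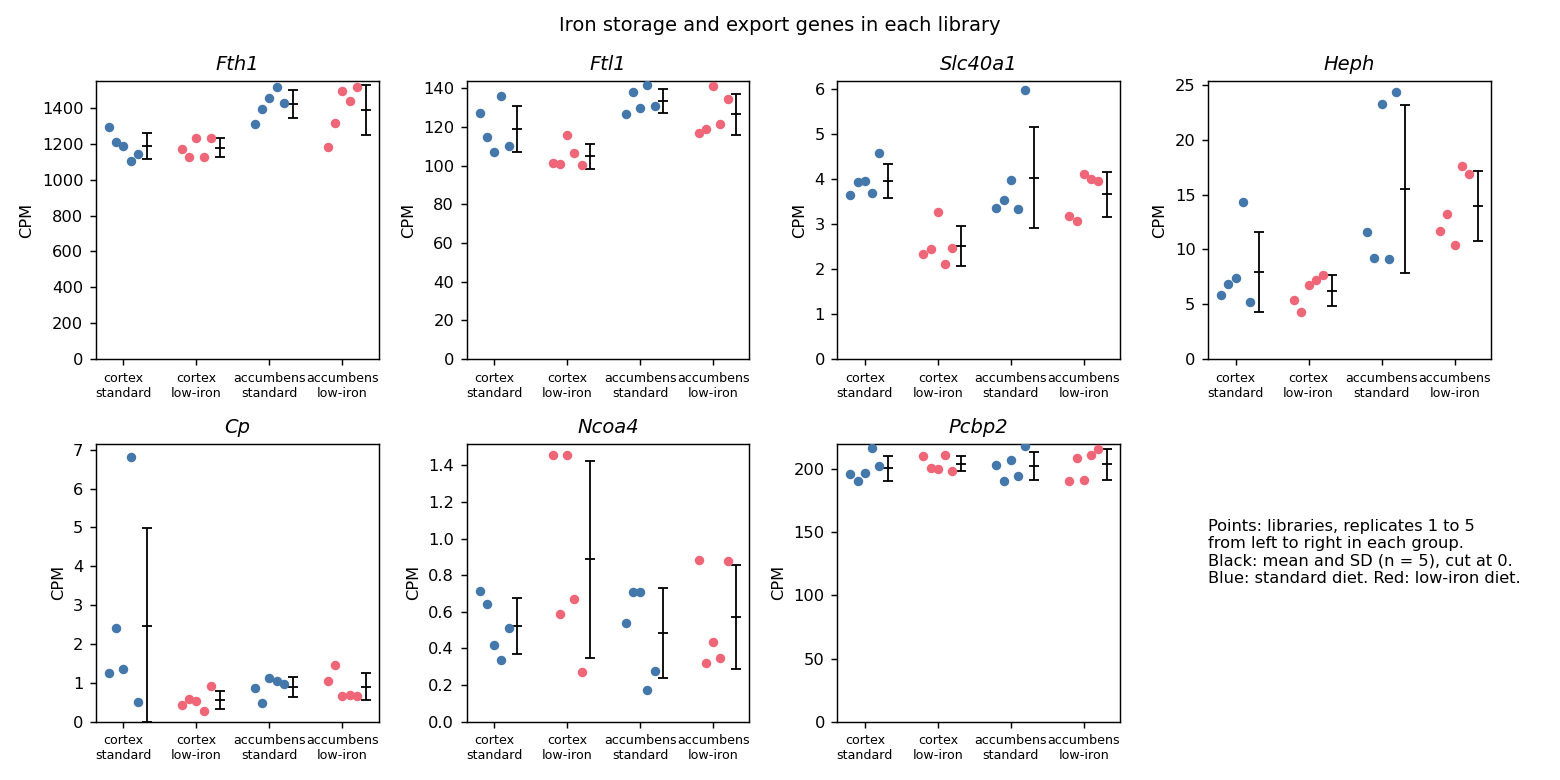
CPM of the 7 genes in every library, with 1 panel per gene and a linear axis from 0. Points are libraries in the order of their replicate numbers, and black bars are the mean and SD of 5 libraries. In the cortex the 5 low-iron Slc40a1 values, 2.11 to 3.27 CPM, lie below the 5 standard-diet values, 3.65 to 4.59 CPM. Standard-diet cortex replicate 4 is the highest of its group for Heph and Cp.

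The first question was whether these genes differed between diets in the prefrontal cortex. Ferroportin had the lowest p of the 5 genes that passed the filter on low counts. Slc40a1 stood at 3.65, 3.92, 3.95, 3.68 and 4.59 CPM in standard-diet replicates 1 to 5. In low-iron replicates 1 to 5 it stood at 2.33, 2.45, 3.27, 2.11 and 2.46 CPM. Every low-iron library was below every standard-diet library. The group means were 2.52 ± 0.442 CPM and 3.96 ± 0.377 CPM (SD, n = 5). Slc40a1 thus had a log2 fold change of -0.68 (SE 0.16, 95% interval -1.03 to -0.33), or 0.624-fold (0.490 to 0.795). It was the only one of the 5 genes without overlap between diets, against 0.523% of all 11662 accessions that were lower without overlap and 1.26% in either direction.

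Over all accessions this difference was not called. The Slc40a1 adjusted p was 0.683 by edgeR and 0.858 by DESeq2, and the authors' deposited table gives it -0.686 on the log2 scale, at an adjusted p of 0.842. By unadjusted p it ranked 4 of 11662. None of the 5 genes tested was called by edgeR at an adjusted p of 0.05, as was the case for 0% of accessions, and DESeq2 likewise called none of them and 0% of accessions. At an unadjusted p under 0.05 by edgeR, 2 of the 5 genes were lower and none was higher, against 3.75% of accessions lower and 5.99% in both directions. Leaving out each library in turn kept the Slc40a1 log2 fold change between -0.77 and -0.62.

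The sequence before the start of Slc40a1 is shown because it belongs to the gene with the lowest p between diets among those that passed the filter, and that of Cp because Cp had the largest fold difference. Both are the 250 bases before the annotated gene start in RefSeq, build GRCr8, read 5′ to 3′ on the gene's strand. Capitals mark matches on either strand to the GC box letters GGGCGG in Slc40a1 and to the TATA box letters TATAAA in Cp.
Slc40a1: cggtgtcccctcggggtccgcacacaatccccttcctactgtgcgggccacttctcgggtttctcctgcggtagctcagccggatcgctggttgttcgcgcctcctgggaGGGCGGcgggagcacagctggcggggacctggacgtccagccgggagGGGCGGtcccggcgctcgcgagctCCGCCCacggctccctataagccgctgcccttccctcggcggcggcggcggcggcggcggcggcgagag
Cp: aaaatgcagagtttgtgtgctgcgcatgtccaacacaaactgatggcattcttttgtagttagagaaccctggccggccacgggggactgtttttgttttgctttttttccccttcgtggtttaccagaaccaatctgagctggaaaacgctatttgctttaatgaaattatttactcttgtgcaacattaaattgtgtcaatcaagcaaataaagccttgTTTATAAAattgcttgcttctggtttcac

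The Slc40a1 stretch (chr9:55543461-55543710, minus strand) was 74% G or C with 33 CpG pairs, and its 3 GC box matches began 140, 93 and 69 bases before the start. The Cp stretch (chr2:104368420-104368669, plus strand) was 39.6% G or C with 5 CpG pairs, and its TATA box letters matched on both strands in overlapping positions 29 and 27 bases before the start. Neither stretch held the core of the antioxidant response element (TGANNNNGC) or of the hypoxia response element (ACGTG). Of 33469 RefSeq windows of the same length, 30.5% held the GC box letters, 12.9% the TATA box letters, 34.7% TGANNNNGC and 16.6% ACGTG. Windows were found for 5 of the 7 genes, and Fth1 and Ftl1 had none in the table used. These matches describe the letters only, since no binding was measured.

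Of the ferritin chains, the light chain was lower with the low-iron diet in the cortex without being called, and the heavy chain did not differ beyond the spread. Ftl1 stood at 127, 115, 107, 136 and 110 CPM with the standard diet and at 102, 101, 116, 106 and 100.4 CPM with the low-iron diet, in replicates 1 to 5. The groups overlapped, since low-iron replicate 3 exceeded 3 standard-diet libraries. On the log2 scale Ftl1 differed by -0.20 (SE 0.07, 95% interval -0.36 to -0.04), with an edgeR adjusted p of 0.683. Without standard-diet replicate 4, the highest, the Ftl1 value was -0.15. Fth1 stood at 1188 ± 72.5 CPM with the standard diet and 1178 ± 52.2 CPM with the low-iron diet (SD, n = 5). Its log2 fold change was -0.03 (SE 0.06), with a 95% interval of -0.16 to 0.11.

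The read ratio of Fth1 to Ftl1 within a library does not depend on scaling, though it is not corrected for transcript length. In the cortex it was 10.19, 10.51, 11.08, 8.12 and 10.37 in standard-diet replicates 1 to 5, and 11.53, 11.21, 10.65, 10.59 and 12.27 in low-iron ones. Most low-iron libraries were higher, but the groups overlapped. The mean log2 ratio was higher by 0.17 with the low-iron diet (exact permutation test, two-sided, p = 0.0476, adjusted p = 0.127 over 8 ratio tests). Without standard-diet replicate 4, the lowest ratio of all 20, the difference was 0.09. In the accumbens the ratio was 10.98 ± 0.666 with the low-iron diet and 10.66 ± 0.457 with the standard diet (SD, n = 5; exact permutation p = 0.405, adjusted p = 0.540).

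**Figure D2:**
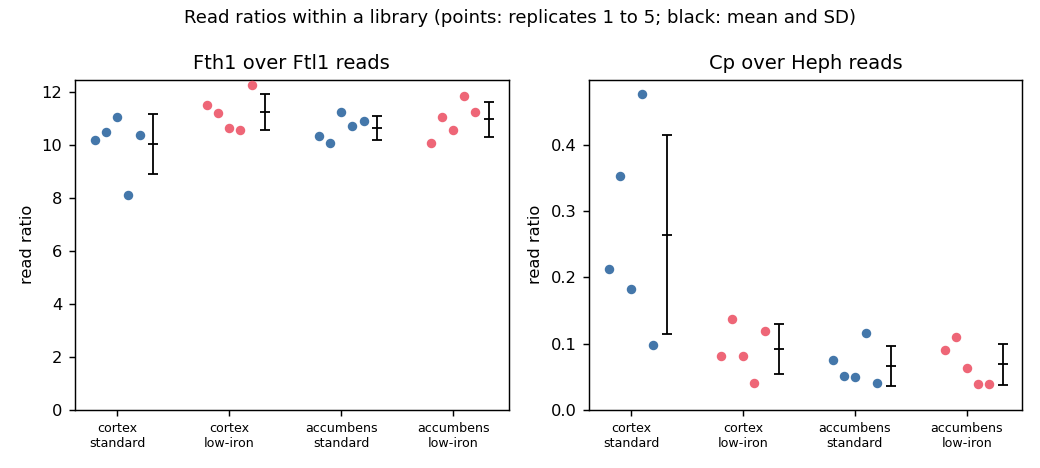
Read ratio of Fth1 to Ftl1 (left) and of Cp to Heph (right) in every library, by region and diet, on linear axes from 0. Points are libraries in the order of their replicate numbers, and black bars are the mean and SD of 5 libraries. The lowest Fth1 to Ftl1 ratio, 8.12, and the highest Cp to Heph ratio, 0.477, both belong to standard-diet cortex replicate 4.

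With the standard diet the ferroxidases of iron export were the most uneven of the genes in the cortex. With the low-iron diet Ncoa4 was. Heph stood at 5.87, 6.81, 7.39, 14.3 and 5.23 CPM with the standard diet and at 5.38, 4.31, 6.72, 7.18 and 7.64 CPM with the low-iron diet, in replicates 1 to 5. The groups overlapped, and standard-diet replicate 4 stood far above the other libraries. Heph had a log2 fold change of -0.35 (SE 0.27, edgeR adjusted p = 0.711), and -0.03 without standard-diet replicate 4. Cp stood at 1.25, 2.40, 1.35, 6.81 and 0.510 CPM with the standard diet and at 0.436, 0.587, 0.545, 0.287 and 0.910 CPM with the low-iron diet. At 3 to 10 reads, the low-iron libraries were at or near the limit of 3 reads, and Cp did not pass the filter on low counts in this comparison. With no filter its log2 fold change was -2.12 (SE 0.66, edgeR adjusted p = 0.732).

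With the reads of its 2 accessions summed, Cp passed the filter and had a log2 fold change of -1.73 (SE 0.58, edgeR adjusted p = 0.673). Without standard-diet replicate 4 it was -1.01 (SE 0.33, edgeR adjusted p = 0.962). The sum, and the Cp counts in the ratio that follows, leave out reads in exons shared by both. The read ratio of Cp to Heph was 0.0915 ± 0.0375 with the low-iron diet and 0.265 ± 0.150 with the standard diet (SD, n = 5). Its log2 difference was -1.44 (exact permutation p = 0.0238, adjusted p = 0.0952 over 8 tests), and -1.18 without that replicate. Meningeal and fibroblast markers were at 578 to 7950 CPM with the standard diet and 190.5 to 1981 CPM with the low-iron diet. In each diet they were highest in the replicate where Cp was highest. In standard-diet replicates 1 to 5 the markers were at 957.5, 1162, 1379, 7950 and 578 CPM, and replicate 5 was the lowest for Cp too. Low-iron replicate 4 had 817 CPM of markers and the lowest Cp, and replicate 2 had 190.5 CPM and a Cp of 0.587 CPM. Those low-iron Cp values rest on 3 and 6 reads, too few to order the libraries by Cp. The part of these markers in the Cp values was not tested.

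The genes that serve ferritin did not stand apart in the cortex. Pcbp2, the iron chaperone, was at 201 ± 9.93 CPM with the standard diet and 204 ± 5.94 CPM with the low-iron diet (SD, n = 5). Its log2 fold change was 0.01 (SE 0.05, 95% interval -0.10 to 0.11). Ncoa4, the ferritinophagy receptor, was at 0.335 to 0.712 CPM with the standard diet and 0.273 to 1.45 CPM with the low-iron diet. With 3 to 10 reads per cortex library it did not pass the filter on low counts, in this or any other comparison. With no filter its log2 fold change was 0.60 (SE 0.45, edgeR adjusted p = 0.734). The median log2 fold change of the 5 genes tested was -0.20, with 4 of 5 below 0. Over all 11662 accessions the median was -0.0006, with 50.2% below 0.

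Marker lists of the cell types lay on both sides of 0 between diets in the cortex, with no marker called. All 10 tested markers of cortical glutamatergic neurons were above 0 (median log2 fold change 0.20), with a summed level of 2868 to 3548 CPM after the low-iron diet and 1879 to 2988 CPM with the standard diet. Striatal projection neuron markers were above 0 for 6 of 9 (median 0.04), while 9 of 11 oligodendrocyte markers (median -0.11) and 7 of 9 astrocyte markers (median -0.03) were below 0. All 12 endothelial markers were below 0 with the low-iron diet, with a median log2 fold change of -0.29, and their summed level was 732 to 891.5 CPM against 772 to 1099 CPM. Mural markers were below 0 for 8 of 10 (median -0.29; 283 to 348 CPM against 294.5 to 584 CPM), and microglial markers for 10 of 12 (median -0.07; 667 to 798 CPM against 700 to 780 CPM). All 9 tested meningeal and fibroblast markers were below 0 (median -1.52). The summed erythroid level was 105 to 155 CPM against 141 to 230 CPM. All these medians include standard-diet replicate 4, which set 1 end of several ranges. It had 1879 CPM of glutamatergic markers against 2824 to 2988 CPM in the other standard-diet libraries. For endothelial markers it had 1099 CPM against 772 to 970 CPM. For mural markers it had 584 CPM against 294.5 to 375 CPM, and for meningeal ones 7950 CPM against 578 to 1379 CPM. None of the endothelial, mural or microglial lists had a marker at 0 in all libraries of a group, while Col1a2 of the meningeal list and the globin genes Hba-a1 (standard diet only), Hba-a2 and Hbb-b1 of the erythroid list did. In the astrocyte list 2 markers were at 0 in all standard-diet libraries and 1 in all low-iron ones. In the striatal list 2 were so with each diet. The part of these cell types in the Slc40a1 difference was not tested.

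**Figure D3:**
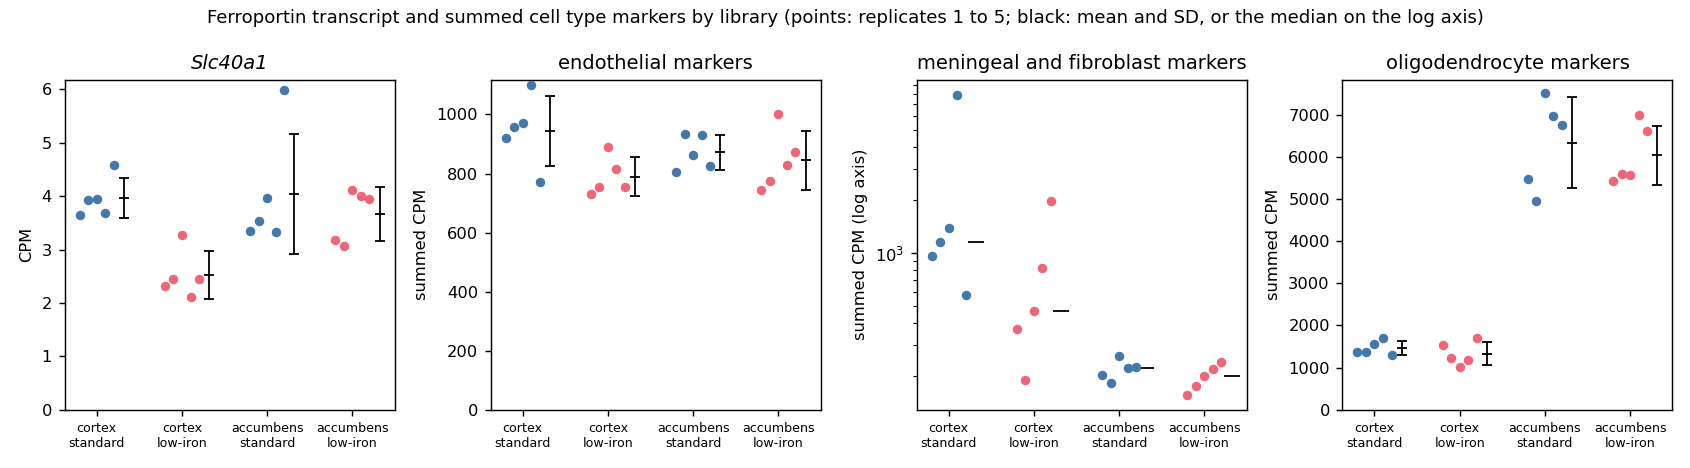
Slc40a1 (left) beside the summed CPM of endothelial, meningeal and fibroblast, and oligodendrocyte markers in every library. The meningeal panel has a log axis and shows the median, and the others are linear from 0 with the mean and SD of 5 libraries. Slc40a1 separates the diets in the cortex, endothelial markers overlap between them, and oligodendrocyte markers separate the regions (4951 to 7503 CPM against 1016 to 1702 CPM).

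In the nucleus accumbens the same genes were compared between diets, and none of those tested was called. Slc40a1 stood at 3.35, 3.54, 3.97, 3.33 and 5.98 CPM with the standard diet and at 3.18, 3.07, 4.12, 4.01 and 3.95 CPM with the low-iron diet, in replicates 1 to 5. The ranges overlapped between 3.33 and 4.12 CPM. Between diets the log2 fold change was -0.14 (SE 0.21, 95% interval -0.58 to 0.30), and 0.04 without standard-diet replicate 5, the highest library. Ftl1 was at 127 ± 10.6 CPM in low-iron libraries against 133 ± 6.29 CPM in standard-diet ones (SD, n = 5), which differed by -0.08 on the log2 scale (SE 0.06). Fth1, in the same order, was at 1390.3 ± 139 CPM against 1421 ± 76.8 CPM (-0.03, SE 0.07). Depth differed between these groups, at 7.19 ± 1.35 M assigned reads with the standard diet and 5.13 ± 0.696 M with the low-iron diet (SD, n = 5). With assigned reads as a covariate the log2 fold change was -0.21 for Fth1 (SE 0.09) and for Ftl1 (SE 0.08). It was -0.37 for Slc40a1 (SE 0.31) and -0.39 for Heph (SE 0.51), with edgeR adjusted p values of 0.543 or more for each. The unadjusted edgeR p was 0.0333 for Fth1, 0.0206 for Ftl1, 0.256 for Slc40a1 and 0.468 for Heph. Low-iron libraries had 4.34 to 5.93 M assigned reads and standard-diet ones 5.48 to 8.86 M, so this fit separates depth from diet poorly.

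Heph in the accumbens was split among the standard-diet libraries, with 11.6, 9.21, 23.3, 9.11 and 24.4 CPM in replicates 1 to 5. The low-iron libraries, at 11.7, 13.3, 10.4, 17.6 and 16.9 CPM, lay between them, and the log2 fold change was -0.14 (SE 0.32). Cp was at 0.899 ± 0.259 CPM in standard-diet and 0.904 ± 0.352 CPM in low-iron libraries (SD, n = 5), from 3 to 9 reads per library. Ncoa4 was at 0.175 to 0.709 CPM in standard-diet and 0.323 to 0.883 CPM in low-iron libraries. Pcbp2 had a log2 fold change of 0.01 (95% interval -0.11 to 0.13). In the fit without the covariate none of the 5 genes tested was called (lowest edgeR adjusted p 0.972), as for 0% of 11202 accessions. None of the 5 passed an unadjusted edgeR p of 0.05 in that fit, against 4.04% of accessions. DESeq2 called none of them, against 1 accession or 0.00893%. None of the 5 lacked overlap between diets, against 0.946% of accessions. The median of the 5 was -0.08, with 4 below 0, and that of all accessions 0.0018, with 49.2% below 0.

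A fit over all 20 libraries tested whether the effect of diet was unequal in the 2 regions. For Slc40a1 the log2 fold change in the accumbens exceeded that in the cortex by 0.52 (SE 0.25, 95% interval -0.0033 to 1.05, edgeR adjusted p = 0.818). Without standard-diet accumbens replicate 5 this difference was 0.70 (SE 0.23, edgeR adjusted p = 0.849), and over all 20 libraries left out in turn it was 0.46 or more. Ftl1 had an interaction of 0.11 (SE 0.09), Heph of 0.19 (SE 0.44), Fth1 of -0.02 (SE 0.09) and Pcbp2 of -0.02 (SE 0.07). Without standard-diet cortex replicate 4 the Heph value was -0.12 and the Ftl1 value 0.06. With its accessions summed, Cp had an interaction of 1.74 (SE 0.69, edgeR adjusted p = 0.818), and 1.03 without that replicate. None of the 5 genes passed an edgeR adjusted or unadjusted p of 0.05, against 0% and 5.37% of 11788 accessions, and none was called by DESeq2, against 0% of accessions.

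**Figure D4:**
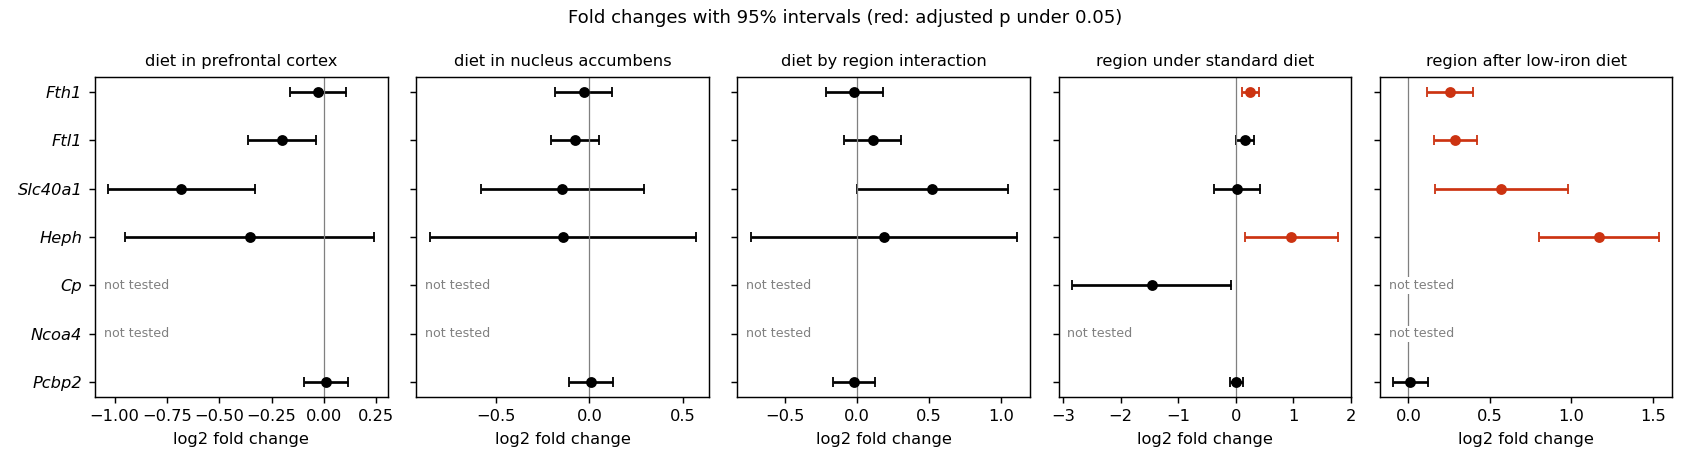
Log2 fold changes with 95% intervals for the genes tested in each of 5 comparisons. Diet panels are low-iron against standard, region panels are accumbens against cortex, and the interaction is the accumbens diet value less the cortex one. Red marks an edgeR adjusted p under 0.05. The region panels hold the red points, 2 with the standard diet and 4 with the low-iron diet, and the axes differ between panels.

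After the low-iron diet Fth1, Ftl1, Heph and Slc40a1 were called higher in the accumbens than in the cortex. With the standard diet Fth1 and Heph were, Heph at the threshold. Scaling matters for this comparison. Before TMM scaling the median log2 ratio of accumbens to cortex was 0.113 (standard diet) and 0.158 (low-iron diet) over all accessions tested. Fold changes are given after scaling, where the medians were 0.008 and 0.027. With the low-iron diet, 4 of the 5 genes tested were called higher in the accumbens, against 30.1% of 11220 accessions called higher and 59.1% called in both directions. With the standard diet, 2 of 6 were called higher, against 23.0% of 11612 accessions higher and 47.0% in both directions. None was called lower, against 24.0% of accessions with the standard diet and 29.0% with the low-iron diet. DESeq2 called 3 of 6 and 3 of 5 genes, against 46.2% and 55.8% of accessions. With so many accessions called, the standard-diet share of these genes is near the background. Without overlap between regions were 1 gene of 6 with the standard diet and 2 of 5 with the low-iron diet, against 16.4% and 21.0% of accessions higher without overlap. Before TMM scaling the counts were 1 of 6 and 4 of 5, against 22.8% and 31.9% of accessions higher and 13.7% and 16.3% lower, where after scaling 17.1% and 23.8% were lower.

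Fth1 was called higher with both diets. With the standard diet it stood at 1311, 1392, 1458, 1517 and 1427 CPM in accumbens replicates 1 to 5 and at 1295, 1208, 1189.6, 1104 and 1143 CPM in the cortex. All accumbens libraries were above all cortex libraries, as for 16.4% of accessions. Fth1 had a log2 fold change of 0.26 (SE 0.07, edgeR adjusted p = 0.00752). With the low-iron diet Fth1 stood at 1183, 1318, 1494, 1440.3 and 1515 CPM in the accumbens and 1172, 1128, 1233, 1127 and 1231 CPM in the cortex, where accumbens replicate 1 fell within the cortex range. Its log2 fold change there was 0.25 (SE 0.07, edgeR adjusted p = 0.00314).

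Ftl1 was called higher in the accumbens after the low-iron diet and was not called with the standard diet. After the low-iron diet it stood at 117, 119, 141, 122 and 134 CPM in the accumbens against 100.4 to 116 CPM in the cortex, with no overlap, as for 21.0% of accessions. Ftl1 then had a log2 fold change of 0.29 (SE 0.06, edgeR adjusted p = 0.000731). With the standard diet it was 0.16 (SE 0.07, adjusted p = 0.0707), and 0.21 (adjusted p = 0.00685) without cortex replicate 4. The ratio of Fth1 to Ftl1 reads did not differ between regions beyond the spread: 10.66 in the accumbens and 10.06 in the cortex with the standard diet (exact permutation p = 0.341, n = 5), and 10.98 and 11.25 with the low-iron diet (exact permutation p = 0.564, n = 5).

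Heph had the largest region difference of the 4 called genes. After the low-iron diet the accumbens libraries stood at 10.4 to 17.6 CPM and the cortex libraries at 4.31 to 7.64 CPM, without overlap. Heph had a log2 fold change of 1.17 (SE 0.18, edgeR adjusted p = 1.546e-05), or 2.25-fold (1.74 to 2.90). With the standard diet it was 0.97 (SE 0.37, adjusted p = 0.0490), and the groups overlapped through cortex replicate 4 at 14.3 CPM. That standard-diet call was at the threshold: the adjusted p was 0.0191 by DESeq2, 0.0518 by edgeR with DESeq2-type size factors and 0.0681 with no filter on low counts. It was lost in 7 of 10 fits that left out 1 library, and the adjusted p was 0.00974 without cortex replicate 4.

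Slc40a1 was not called between regions with the standard diet and was called higher in the accumbens after the low-iron diet. With the standard diet the means were 4.03 ± 1.12 CPM in the accumbens and 3.96 ± 0.377 CPM in the cortex (SD, n = 5), and the log2 fold change was 0.03 (SE 0.18, 95% interval -0.37 to 0.43). Without accumbens replicate 5 it was -0.15. After the low-iron diet they were 3.67 ± 0.498 CPM and 2.52 ± 0.442 CPM, a log2 fold change of 0.57 (SE 0.19, edgeR adjusted p = 0.0177, DESeq2 adjusted p = 0.0653). Cortex replicate 3, at 3.27 CPM, overlapped with accumbens replicates 1 and 2. The call was kept in all 10 fits that left out 1 library (adjusted p up to 0.0489). Both low-iron groups also enter the diet comparisons, so this is not independent of the cortex diet difference.

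Pcbp2 had mean levels of 203 CPM in standard-diet and 204 CPM in low-iron accumbens, against 201 and 204 CPM in the cortex. Its region log2 fold changes were 0.02 (95% interval -0.10 to 0.13) and 0.01 (-0.09 to 0.12). It had the narrowest intervals of the set in the region comparisons. Cp passed the filter only with the standard diet, where it was lower in the accumbens by a log2 fold change of -1.46 (SE 0.63, edgeR adjusted p = 0.0780, DESeq2 adjusted p = 0.0460). Without cortex replicate 5 it was -1.70 (edgeR adjusted p = 0.0294). Of the 7 fits without 1 library in which Cp passed the filter, this was the only 1 that called it (edgeR adjusted p up to 0.159). With its accessions summed and without cortex replicate 4 the value was -0.55 (adjusted p = 0.155). The read ratio of Cp to Heph was 0.0660 in the accumbens against 0.265 in the cortex with the standard diet (exact permutation p = 0.0159, adjusted p = 0.0952 over 8 tests). Its log2 difference was -1.91, and -1.64 without cortex replicate 4. With the low-iron diet the ratio was 0.0683 against 0.0915 (exact permutation p = 0.357, adjusted p = 0.540).

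The order of the 4 groups can be given for each gene. Slc40a1 had its highest mean in standard-diet accumbens, followed by standard-diet cortex, low-iron accumbens and low-iron cortex, and the ranges of the first 3 overlapped. Ftl1 and Heph ran from standard-diet accumbens through low-iron accumbens and standard-diet cortex to low-iron cortex, with neighbours overlapping at each step. Fth1 had the same order, with its cortex groups at 1188 and 1178 CPM. Pcbp2 and Ncoa4 had no order beyond the spread, and Cp had its highest mean in standard-diet cortex, where 1 library stood at 6.81 CPM.

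Markers of other cell types were called between the regions too. Of 11 tested oligodendrocyte markers, 10 were called higher and 1 lower in the accumbens with each diet, with medians of 2.17 and 2.19 on the log2 scale. Their summed level was 4951 to 7503 CPM in the accumbens and 1016 to 1702 CPM in the cortex. Of 12 microglial markers, 6 were called higher after the low-iron diet (summed 729 to 882 CPM against 667 to 798 CPM) and none with the standard diet. Of 12 endothelial markers, 1 was called lower with the standard diet and 3 higher after the low-iron diet. Of 10 mural markers 3 and then 4 were called higher, and of 8 meningeal ones 6 and then 5 lower. Of 9 astrocyte markers 2 and then 3 were called higher, and 2 lower with each diet. Over all accessions 23.0% were called higher and 24.0% lower with the standard diet, and 30.1% and 29.0% with the low-iron diet. The part of these cell types in the ferritin, hephaestin and ferroportin differences was not tested.

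Among the other genes of iron handling, 58 were listed in 6 groups and 48 to 50 could be tested. In neither diet comparison was any of them called by edgeR. In the cortex the lowest p values for iron uptake and sensing belonged to Tfr2, the second transferrin receptor (-0.57), and Cybrd1, a ferric reductase (-0.63). For ferritin and ferroportin partners they belonged to App (0.13) and Cd63, a membrane protein of exosomes (-0.25). For ferritinophagy and the lysosome they belonged to Lamp2 (-0.18) and Herc2, a ligase that degrades NCOA4 (0.09). For heme they belonged to Flvcr2 (-0.28) and Hmox2 (0.34), for mitochondrial iron to Fech (-0.07) and Iscu (0.06), and for NRF2 targets to Slc7a11 (-0.17) and Gsr (0.07). The medians of the 6 lists lay between -0.12 and 0.02, and those of 3 lists were within 0.01 of 0.

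In the accumbens the diet values nearest to passing were those of Fbxl5, which targets iron regulatory protein 2 for degradation (0.12), and Tfrc, the transferrin receptor (0.18). The others by the same rule were Pcbp4 (-0.08), Cd63 (-0.10), Herc2 (-0.09), Lamp1 (-0.07), Flvcr2 (-0.23), Slc48a1 (-0.05), Iscu (-0.12), Fech (0.05), Nqo1 (-0.19) and Slc7a11 (0.11). Every one had an edgeR adjusted p of 0.972 or more. The medians of the lists were between -0.058 and 0.005.

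Between regions 10 of 49 listed genes were called higher and 14 lower in the accumbens with the standard diet, and 11 of 48 higher and 17 lower with the low-iron diet. Over all accessions 23.0% were called higher and 24.0% lower with the standard diet, and 30.1% and 29.0% with the low-iron diet, so these counts lie near the background. Transferrin, Tf, which in brain is made mainly by oligodendrocytes, rose by 2.02 and 2.01 on the log2 scale, and Tfr2 by 0.86 and 1.45. Both biliverdin reductase genes were lower, Blvra at -1.11 and -1.28 and Blvrb at -0.39 and -0.37. In the partner list no gene was called higher, with 2 of 6 lower under the standard diet and 4 of 5 under the low-iron diet. There, Pcbp4 was at -0.38 and -0.47 and App, whose protein binds ferroportin, at -0.30 and -0.49. Abcb10, a mitochondrial transporter, was at -0.49 and -0.50, and Slc7a11 at -0.76 and -0.48. Ctsb, a lysosomal protease, was at -0.22 and -0.26. Gabarapl2 (0.20) was named under the standard diet only, and Herc2 (-0.33) under the low-iron diet only. All values named here had an edgeR adjusted p under 0.05.

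Genes whose levels most resembled those of 3 members were found over the 10 libraries of a region, among 8877 to 8893 accessions at 10 CPM or more. In the cortex Slc40a1 was most like Inpp1 (r = 0.888), Foxo4 (0.862) and Abcg2, an efflux transporter of brain endothelium (0.861), and in the accumbens like Vav2 (0.920), Ptdss2 (0.863) and Cc2d1a (0.856). Fth1 was most like Strada (0.916), Tnnc2 (0.892) and Acss2 (0.888) in the cortex and Mylk (0.968), Slco2b1 (0.952) and Ctss (0.927) in the accumbens. Ftl1 was most like Cnn3 (0.945), Gsta1 (0.936) and Id3 (0.934) in the cortex and Vtn (0.949) and Cald1 (0.932) in the accumbens. Without the 2 libraries farthest from the median, r was lowest for Slc40a1 with Ptdss2, at 0.679, and highest for Ftl1 with Cnn3, at 0.969. These are the largest of many values over libraries that share diet, depth and tissue composition, and no gene was among the 3 most like the same member in both regions.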

How the data were processed

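Poly(A) RNA of 20 libraries was sequenced as 75 bp single reads from RNA with an integrity number above 8.3, per the labels' protocols. The authors deposited unstranded read counts per RefSeq accession for each library, with each accession a separate feature. Build rn6 and the tools DESeq, DESeq2, HTSeq, STAR and Trimmomatic 0.36.3 are listed, without roles, in the submitters' processing notes. The deposited tables of the authors also hold a mean normalised signal, log2 fold changes with standard errors, a test statistic (score) and p-values, of which the log2 fold changes and p-values were read for the genes described. For each of the 17026 accessions in these tables, the counts matched the library files.

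Rows that name no gene held 50.8 to 60.7% of reads and were left out. Assigned reads were 10.3 ± 2.00 and 9.36 ± 2.59 M in standard-diet and low-iron cortex, and 7.19 ± 1.35 and 5.13 ± 0.696 M in accumbens (SD, n = 5). The test on counts was edgeR's quasi-likelihood F test (edgeR 4.0.16, R 4.3.3; TMM, filterByExpr with minimum count 10), adjusted by Benjamini-Hochberg over all accessions tested, at a threshold of 0.05. Standard errors (SE) were obtained from the fold change and F, as |log2 fold change| over the root of F. Each comparison of 2 groups used its 10 libraries, and the interaction used all 20. DESeq2 1.42.0, DESeq2-type size factors, no filter, summed accessions, a replicate block, assigned reads as a covariate in the accumbens and leaving out each library were alternatives. The script was tested on simulated data. Printed CPM were scaled by TMM over all 20 libraries. Read ratios were compared by exact permutation tests, whose smallest p is 0.00794; of 12 planned, 8 were possible because Pcbp1 was not analysed. Likeness used log2(CPM + 0.5). The limit of 3 reads covers counting error only.

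The members, the 6 pathway lists and the 10 marker lists were chosen with earlier results of these data known. The rule for names took all members in every comparison, the 2 genes with the lowest p of each pathway list in each diet or region comparison, and the 3 genes most like Slc40a1, Fth1 and Ftl1. A few genes that this rule names are not reported here. Symbols came from RefSeq and the deposited tables, and chromosomes from the deposited tables. Promoter sequences are RefSeq, build GRCr8.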

Additional observations from a re-analysis of the deposited data

Results flagged for a closer look

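Among 36 sets of 5 libraries (the levels of the 7 genes and the 2 read ratios in each group), 2 held a library whose distance from its nearest neighbour was more than 0.71 of the whole range. Chance alone would flag about 1 in 20 sets. Slc40a1 stood at 5.98 CPM in standard-diet accumbens replicate 5, next to 3.97 CPM, and the gap was 0.758 of the range. The log2 fold change between diets there was 0.04 without this library and -0.14 with it. Heph stood at 14.3 CPM in standard-diet cortex replicate 4, next to 7.39 CPM, and the gap was 0.762 of the range. In the same library meningeal and fibroblast markers summed to 7950 CPM, choroid plexus markers to 125 CPM and mural markers to 584 CPM, each the highest of the 20 libraries. Their part in the Heph value was not tested.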

How the results depend on the processing

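No accession was called between diets or in the interaction by edgeR under any setting run, and DESeq2 called 1 accession between diets in the accumbens. Calls between regions numbered 4906 to 6293 with the standard diet and 6245 to 6534 with the low-iron diet when 1 library was left out. Signs changed for genes near 0. For Pcbp2 the log2 fold change was -0.0037 between diets in the accumbens with assigned reads as a covariate, where Fth1, Ftl1, Slc40a1 and Heph moved further below 0 without being called. Between regions after the low-iron diet it was -0.0037 by DESeq2, -0.000297 with DESeq2-type size factors and -0.0060 with accessions summed. Leaving out each library gave these ranges of log2 values. Between diets in the accumbens they were -0.21 to 0.0351 for Slc40a1, -0.0647 to 0.0223 for Fth1, -0.29 to 0.07435 for Heph, -0.0157 to 0.0333 for Pcbp2 and -0.17 to 0.26 for the Cp to Heph ratio. Between diets in the cortex they were -0.0468 to 0.00496 for Fth1 and -0.00918 to 0.04525 for Pcbp2. In the interaction they were -0.0525 to 0.0326 for Fth1, -0.12 to 0.41 for Heph and -0.0479 to 0.00915 for Pcbp2. Between regions with the standard diet they were -0.15 to 0.09435 for Slc40a1 and -0.0122 to 0.0556 for Pcbp2, and after the low-iron diet -0.0168 to 0.0269 for Pcbp2. The cause was not tested. Deviations of same-numbered libraries from their group means had r from -0.31 to 0.16 between diets. Between regions r was -0.043 to 0.073 with the standard diet and 0.021 to 0.136 with the low-iron diet. There, 2 of 5 and 3 of 5 accumbens libraries were most like the cortex library of their own number. This does not settle whether the numbers link the regions, and the main tests did not take them as pairs. With a replicate block, Heph with the standard diet had a region value of 0.93 and an adjusted p of 0.0977, and no other call on a member changed. Paired by number, an option added after seeing the data, the Fth1 to Ftl1 ratio in the cortex differed by 0.17 between diets (exact sign-flip p = 0.125). With 5 pairs a two-sided sign-flip test cannot give a p under 0.05, so it cannot decide whether the ratio differed. With 16 to 49 reads for Slc40a1 and under 11 for Ncoa4, low counts limit what these genes can show. The Ncoa4 count also leaves out reads in the shared exons described above.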
